A study of Drosophila melanogaster with 91 samples.

Results

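Late organ maturation was set against the approach to hatching in 14 Drosophila melanogaster (fruit fly) embryos, each sequenced alone, out of 91 in a time course with 1 embryo every 15 min. Labelled time alone chose them. The earlier group held the 7 embryos labelled 900, 915, 930, 945, 960, 975 and 990 min, and the later group the 7 labelled 1245, 1260, 1275, 1290, 1305, 1320 and 1335 min. Time was counted from cellularization, when the early embryo, until then a shared cytoplasm with many nuclei, is partitioned into cells. All embryos were untreated, had lost their outer shell to bleach, developed stuck to glass under buffer and were timed one by one by eye before freezing. The labels name no strain, sex or mother. RNA of each embryo was barcoded, amplified and read by CEL-Seq, which samples the 3' ends of polyadenylated transcripts. Levels are given as counts per 1000000 counts on fly genes (CPM).

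In the last part of fly embryogenesis the epidermis and the trachea secrete a cuticle of chitin fibres and protein, layer upon layer. Osiris proteins (membrane proteins of cuticle-making epithelia), Tweedle proteins and the chitin-binding Cpr proteins are made in waves as the layers form. At the same time muscles begin to contract, neurons fire and release peptides, and the midgut is prepared to digest food, which the larva meets only after it has hatched.

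The 14 libraries held 1193766 to 3097439 gene counts, with a median of 1902414. They ran on 1 sequencing lane, but the earlier embryos were in 1 library pool and the later ones in another, so that pool and group cannot be told apart among them. The exact two-sided permutation test did not separate the groups by the spike-in share of counts (4.64 ± 0.751% in the earlier and 5.36 ± 1.20% in the later group, SD, n = 7 each, p = 0.198, adjusted p = 0.506 over 5 totals). The share of mitochondrial transcripts was 8.05 ± 1.26% and 8.66 ± 1.60% (exact permutation p = 0.443, adjusted p = 0.554). Genes with at least 1 count numbered 9304 ± 299 and 8974 ± 775 (exact permutation p = 0.307, adjusted p = 0.511).

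Several embryos stood apart from their group. By Spearman correlation of log2(CPM + 1) over 7722 genes, the embryo labelled 1260 min was most like that at 960 min (0.821), and the embryo labelled 1335 min most like that at 1035 min (0.891), each 300 min before its label. The other 5 later embryos correlated with each other at 0.807 to 0.925, against 0.577 to 0.925 with those included. Among the earlier embryos, those at 900 and 960 min were closest to each other (0.915), the embryo at 915 min was closest to that at 1020 min (0.926), and the embryo at 930 min was closest to that at 855 min (0.845). The embryo at 915 min had a mean correlation of 0.727 with the rest of its own group and 0.80 with the later group. It was kept in both comparisons. Results are therefore given over all 14 embryos, where no gene passed the main test, and over the 12 embryos left without those at 1260 and 1335 min, with the embryos named beside many of the values. For some genes only 12-embryo values are given, and none of those passed the main test over 14 embryos. Both were set aside for their measured profiles, so p-values over 12 embryos are too small and describe the 5 remaining later embryos only.

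**Figure D1:**
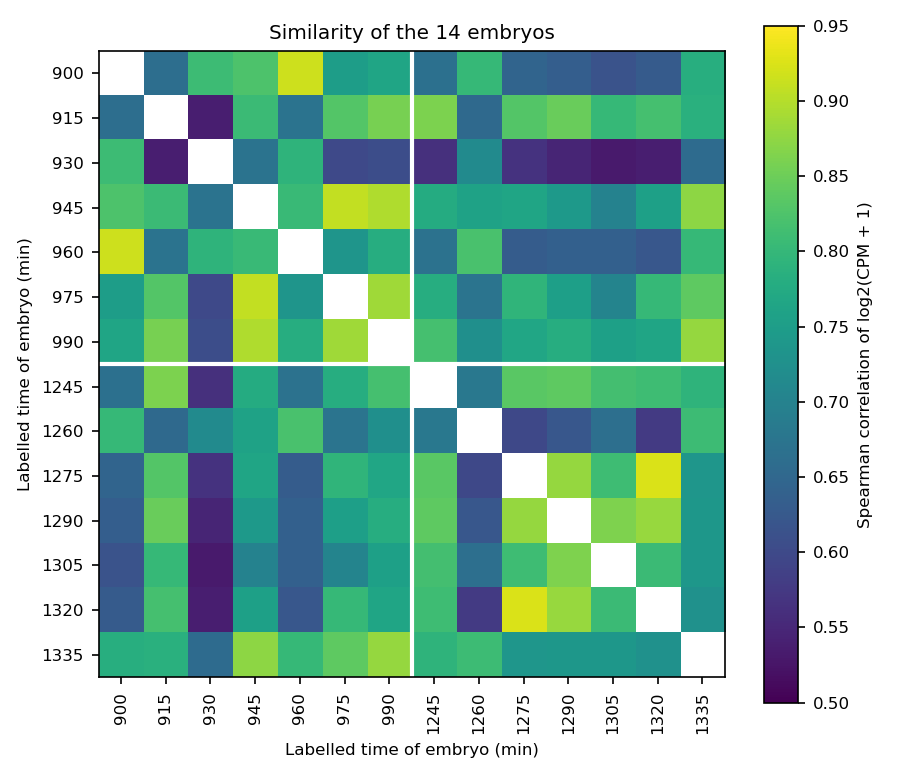
Spearman correlation of log2(CPM + 1) between each pair of the 14 embryos, ordered by labelled time in min on both axes, with white lines between the groups. Lighter squares mark more similar embryos: pairs of the later embryos other than those at 1260 and 1335 min lie between 0.807 and 0.925.

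Over all 14 embryos no gene passed the test. Of 6697 genes tested with edgeR's quasi-likelihood F-test and Benjamini-Hochberg adjustment, 0 (0.0%) were called higher and 0 (0.0%) lower in the later group at an adjusted p under 0.05, and the smallest adjusted p was 0.113. At an unadjusted p under 0.05 there were 552 higher (8.24%) and 395 lower (5.9%). On the same genes DESeq2 called 145 higher (2.17%) and 63 lower (0.941%), and limma voom called 3 higher (0.0448%) and 0 lower. Over the 12 embryos, edgeR called 147 of 7187 genes higher (2.05%) and 166 lower (2.31%), 4.36% in all, and at an unadjusted p under 0.05 there were 740 higher (10.3%), 766 lower (10.7%) and 1506 in all (21.0%). Over these 12 embryos the groups did not overlap for 124 genes that were higher (1.73%) and 167 that were lower (2.32%). Leaving out 1 more embryo at a time gave 73 to 402 genes higher and 51 to 301 lower, the fewest without the embryo at 1290 min and the most without that at 915 min. In all 12 of those fits 94 of the 313 genes were called. These are whole embryos, in which fewer cells of a type and less RNA per cell cannot be told apart.

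**Figure D2:**
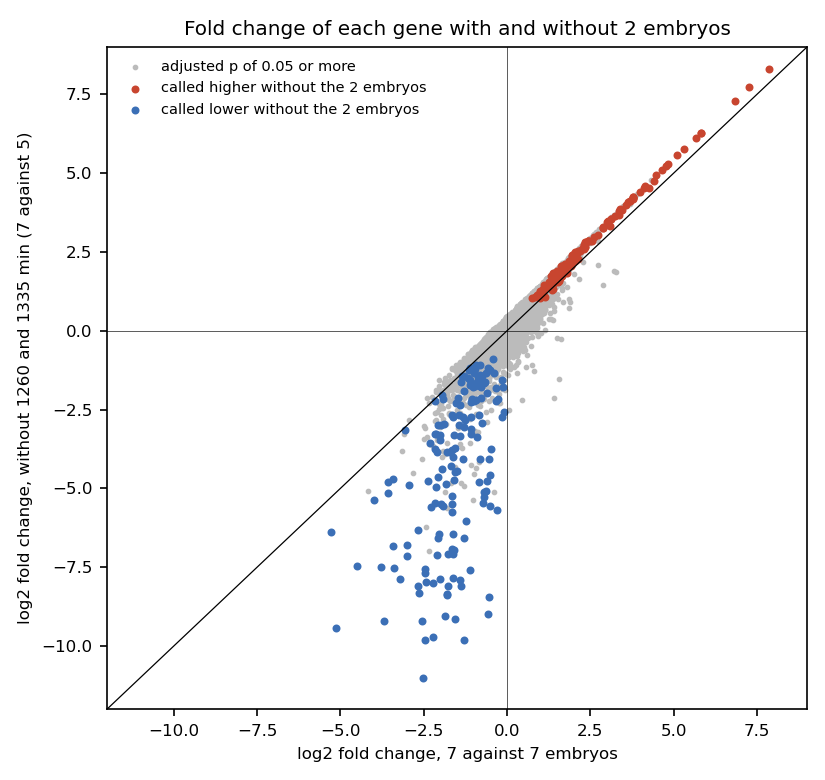
Fitted log2 fold change, later over earlier group, of each gene tested in both comparisons. The horizontal axis is over all 14 embryos and the vertical axis without the embryos at 1260 and 1335 min, with a line of equality. Coloured points are genes called in the fit without those embryos, and all lie on the same side of 0 on both axes.

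The largest falls over the 12 embryos were in genes of the cuticle. Of the 52 Tweedle, Osiris and Vajk genes, 48 had counts and 31 passed the filter on low counts. Of these 31, 18 fell and 1 rose over the 12 embryos, where 2.31% of all genes fell and 2.05% rose. The median log2 difference was -4.44, against -0.05 for all genes tested. The 30 genes tested in both comparisons held all 18 falls but not the rise. Over the 14 embryos none of 30 passed the test and the median was -1.53, against -0.02 for all genes. Their summed level was 25749 to 45662 CPM in the earlier embryos, and 5941 to 24857 CPM in the 5 later ones. It was 51306 CPM in the embryo labelled 1335 min, higher than in any earlier embryo. In the embryo labelled 1260 min it was 23223 CPM, lower than in any earlier embryo and within the range of the 5 later ones.

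Osi6 (FBgn0027527), an Osiris gene, fell. It stood at 67.7 to 13906 CPM in the earlier embryos, with a median of 106 CPM, and at 1.21 to 5.03 CPM in the 5 later ones. The embryo at 1260 min had 561 CPM and that at 1335 min 4.81 CPM. The earlier embryos were of 2 kinds: those at 900, 930 and 960 min had 5213 CPM or more, and the other 4 had 106 CPM or less. The groups of 7 and 5 did not overlap. The log2 difference was -9.43 ± 1.75 (SE, adjusted p = 0.0109 by edgeR), against -5.13 ± 1.73 over 14 embryos (adjusted p = 0.219 by edgeR, 0.0062 by DESeq2). Osi6 was called in all 12 fits that left out 1 more embryo.

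Tweedle genes fell too. TwdlD (FBgn0039444) had 0 to 4511 CPM in the earlier embryos, where that at 930 min alone had none and that at 915 min had 76.3 CPM. It had 2.72 to 5.98 CPM in the 5 later ones, but 734 CPM at 1260 min and 2206 CPM at 1335 min. Its log2 difference over 12 embryos was -8.35 ± 1.61 (adjusted p = 0.0132), against -1.82 ± 1.60 over 14 (adjusted p = 0.627). TwdlV (FBgn0037227) had 0.803 to 277 CPM in the earlier embryos and no count in the 5 later ones (adjusted p = 0.015). Set against the 3 counts that a group total of 0 allows, it was at least 473-fold lower. The embryos at 1260 and 1335 min had 32.6 and 119 CPM of TwdlV, so that its fall, like that of TwdlD, was seen only without them.

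The other falls named by rule in these families also passed edgeR's test only without the embryos at 1260 and 1335 min. For Osi15, Osi20, TwdlF and TwdlT the embryo at 1260 min alone lay far above the other later ones. That at 1335 min was well below it, unlike for TwdlD and TwdlV. Osi15, Osi20 and TwdlF had 3315, 8136 and 5791 CPM at 900 min and also 4021, 4131 and 3643 CPM at 1260 min, while the 5 later embryos had at most 3.23, 6.13 and 9.21 CPM. Their adjusted p over 12 embryos was 0.021, 0.0263 and 0.042, and over 14 it was 0.91, 0.678 and 0.753. Without the embryo at 1290 min the adjusted p of Osi15 was 0.062 and that of Osi20 was 0.0751, and without the embryo at 1275 min that of TwdlF was 0.106. TwdlT and Twdlbeta, with medians of 33.5 and 129 CPM in the earlier embryos, had a single count each in the 5 later ones (adjusted p = 0.00884 and 0.00951). TwdlT had an adjusted p of 0.0507 without the embryo at 1275 min.

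Not every cuticle gene was lower. TwdlO (FBgn0039438) rose over the 12 embryos: it had 0 to 2.91 CPM in the earlier embryos and 57.0 to 267 CPM in the 5 later ones, with no overlap (log2 difference 8.64 ± 0.87, adjusted p = 0.000397, called in 12 of 12 fits leaving out 1 more embryo). At 1260 and 1335 min it had 0 and 0.962 CPM. TwdlO passed the filter on low counts only over 12 embryos, through the later embryos where it was high. Its p-value therefore describes those embryos and gives no further support. TwdlN (FBgn0039441), abundant in most embryos of both groups, did not pass the test. It had 4134 CPM or more in 4 of the earlier embryos but 8.83 to 47.6 CPM at 900, 930 and 960 min, and 1769 to 13155 CPM in all later embryos other than that at 1260 min, which had 20.7 CPM. TwdlM did not pass the test either, with a median of 8375 CPM in the earlier group and 42.9 CPM in the later group, where the embryo at 1335 min had 19097 CPM.

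**Figure D3:**
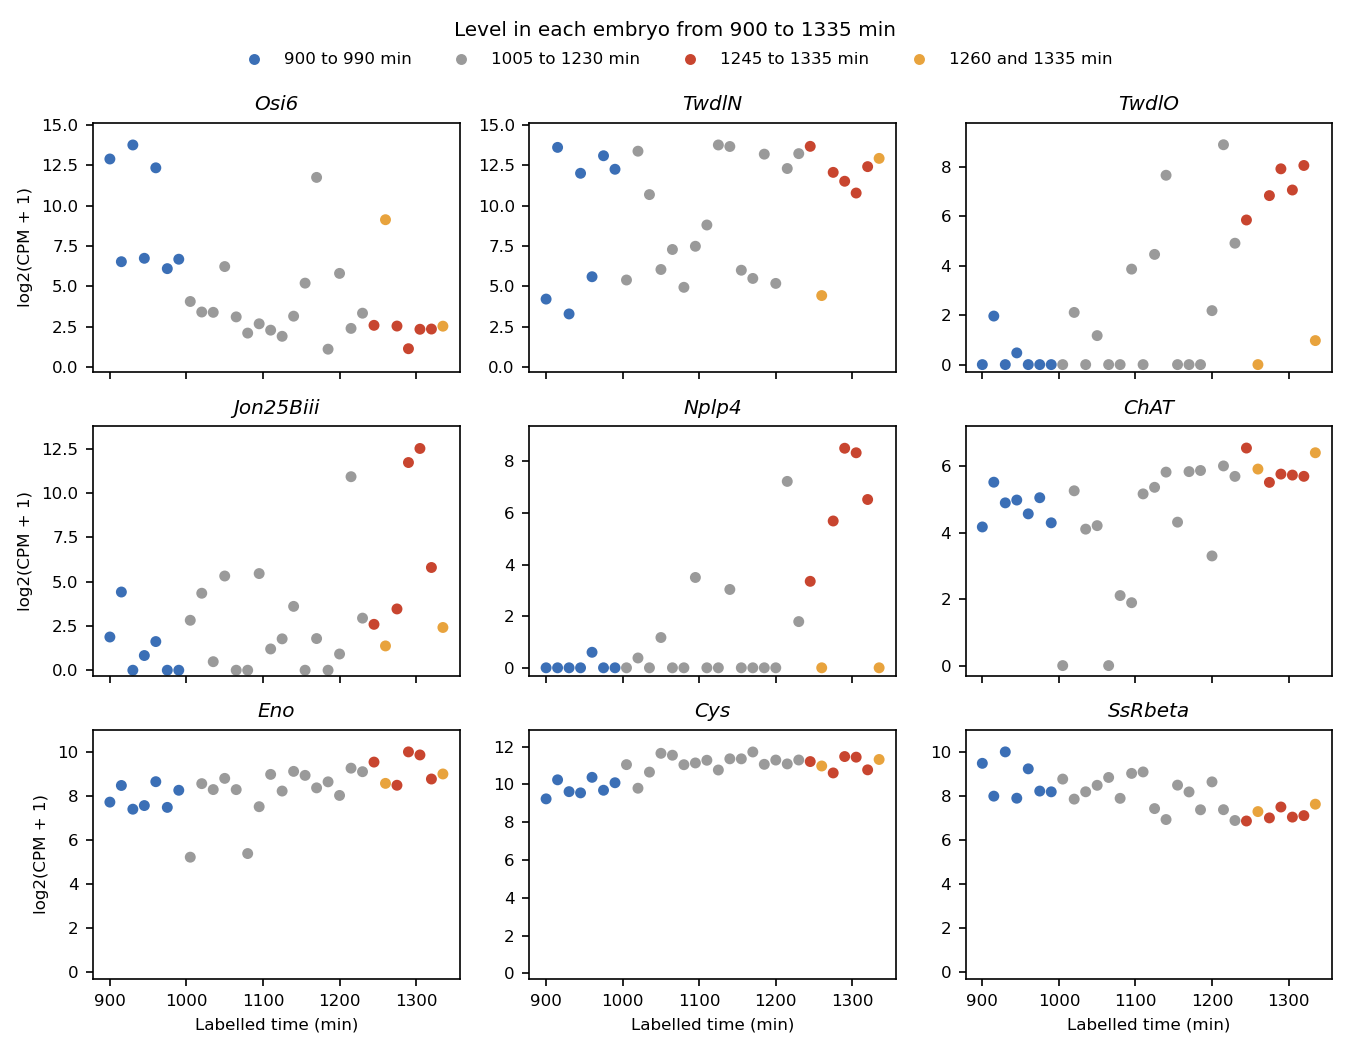
Level of 9 genes, as log2(CPM + 1), in each embryo from 900 to 1335 min of labelled time. Blue points are the earlier group, red and orange points the later group (orange for 1260 and 1335 min), and grey points the 16 embryos between; Osi6 is low in every red point, while TwdlO, Nplp4 and Jon25Biii are high in some or all of the red points and low in both orange ones.

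More Cpr genes fell than rose. Of 99, 88 had counts and 55 passed the filter over 12 embryos, of which 9 fell and 2 rose (median -0.63), where 2.31% of all genes fell and 2.05% rose. Over 14 embryos none of 49 passed the test (median -0.55). The lowest log2 difference of any Cpr gene was -3.70 over 14 embryos, against -9.81 over 12. Cpr66Cb, Cpr64Ab, Cpr65Eb and Cpr66D, with earlier medians of 53.4, 107, 31.5 and 41.4 CPM, had at most 0.920 CPM in any of the 5 later embryos (adjusted p = 0.00529, 0.00887, 0.00884 and 0.015). Cpr64Ab and Cpr66D lost the call without the embryo at 1290 min (adjusted p = 0.0573 and 0.0518). Cpr47Eb (FBgn0033598) was among the 12 genes with a symbol and the smallest p over 14 embryos. It had 0 to 10.9 CPM in the earlier and 8.86 to 172 CPM in the later embryos, a log2 difference of 4.25 ± 0.81 (adjusted p = 0.113) over 14 and 4.53 ± 0.83 (adjusted p = 0.00983) over 12. Cpr67B rose over the 12 embryos, from a median of 2.59 CPM to 379 CPM (5.30 ± 1.23, adjusted p = 0.0284, but 0.0669 without the embryo at 1305 min). The abundant pair Lcp65Ag2 and Lcp65Ag3, near-identical genes between which reads may have been split, did not pass the test: Lcp65Ag2 had medians of 9194 and 9238 CPM.

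Genes of the chitin matrix were lower in the later embryos where they passed the test. Over 12 embryos 4 of 30 fell, where 2.31% of all genes did, and none rose (median -1.02). Over 14 embryos none of 30 passed the test (median -0.30), and the lowest log2 difference was -1.64. obst-A, a chitin-binding protein that organizes the matrix, had 130.1 to 3582 CPM in the earlier embryos and 42.0 to 205 CPM in the 5 later ones (-4.01 ± 0.80, adjusted p = 0.015). It had 2047 CPM at 1260 min and 912 CPM at 1335 min, and over 14 embryos its difference was -1.63 ± 0.91 (adjusted p = 0.446). Gasp, a chitin-binding protein of the trachea, serp, a chitin deacetylase, and mwh, which shapes epidermal hairs, differed by -2.67 ± 0.64, -1.60 ± 0.41 and -1.83 ± 0.48 (adjusted p = 0.0311, 0.041 and 0.0485). Each of these 3 was called in at most 4 of the 12 fits leaving out 1 more embryo, with a highest adjusted p of 0.0867 (without 1290 min), 0.108 and 0.111 (both without 1275 min). The chitin synthase gene kkv did not pass the test, with 13.7 to 63.5 CPM in the earlier group and 8.17 to 235 CPM in the later one, highest at 1260 min. Of the tanning genes, which harden and colour the cuticle, 1 of 14 fell over 12 embryos, where 2.31% of all genes did. It was yellow-d2 (-2.36 ± 0.63, adjusted p = 0.0488, but 0.116 without 1275 min). Ddc and ple, the enzymes that make dopamine from tyrosine, had medians of 23.3 and 33.6 CPM in the earlier group and 26.0 and 36.5 CPM in the later one. Neither passed the test.

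**Figure D4:**
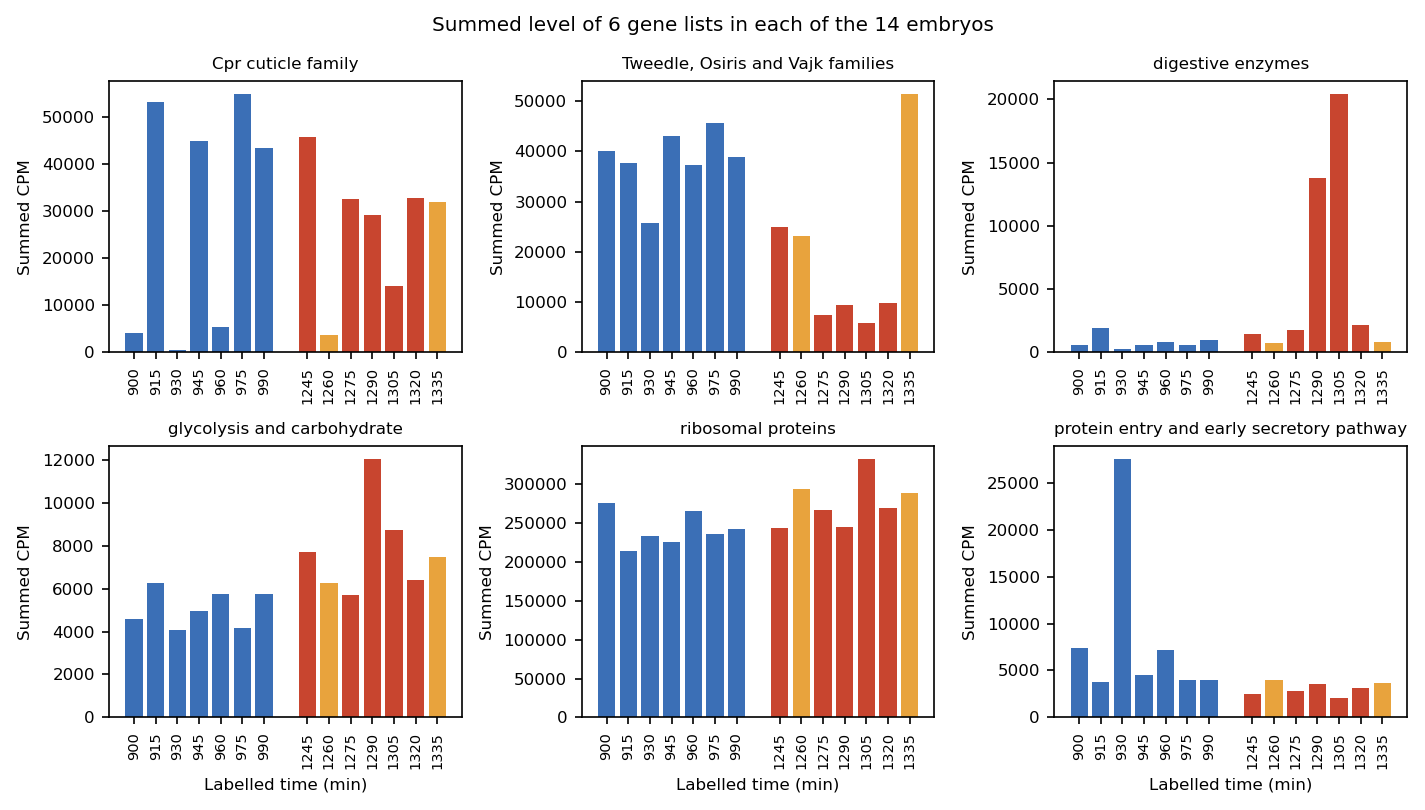
Summed CPM of the genes of 6 lists in each of the 14 embryos, with the earlier group in blue, the later group in red and the embryos at 1260 and 1335 min in orange. Tweedle, Osiris and Vajk genes sum to 24857 CPM or less in the red embryos and to 25749 CPM or more in the blue ones, and digestive enzymes sum to 13793 and 20379 CPM in the embryos at 1290 and 1305 min.

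Several digestive enzyme genes rose over the 12 embryos. Of 63 genes 61 had counts, 32 passed the filter over 12 embryos, 6 of these rose, where 2.05% of all genes did, and none fell. The filter bears on this count: 12 of the 32 were tested only over 12 embryos, and genes high in a few later embryos alone can enter that way. Of the 20 genes tested in both comparisons 1 rose over 12 embryos (median 1.87), and over 14 embryos 16 of them had a positive difference (median 1.65) and none passed the test. The level was concentrated in a pair of embryos: those at 1290 and 1305 min had 13793 and 20379 CPM summed over the list, the other later embryos 743 to 2173 CPM, and the earlier ones 257 to 1949 CPM, so that apart from that pair the groups overlapped.

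Jon25Biii (FBgn0031653), a serine protease of the Jonah family made in the midgut, had 3389 CPM at 1290 min and 5878 CPM at 1305 min. The other 5 later embryos had 1.59 to 54.7 CPM and the earlier embryos 0 to 20.4 CPM, so the groups overlapped. It passed the test over 12 embryos (9.36 ± 2.01, adjusted p = 0.0207) but not without the embryo at 1305 min (log2 difference 7.94), and it was too low in too many embryos to be tested over 14. LysE, a lysozyme, had 373 and 452 CPM at 1290 and 1305 min and at most 9.66 CPM in any other embryo (8.13 ± 1.71, adjusted p = 0.0183). It is one of several similar lysozyme genes between which reads may have been split. The trypsin gene alphaTry did not overlap over the 12 embryos: 0 to 45.8 CPM in the earlier and 137 to 1332 CPM in the 5 later ones, but 19.9 and 8.18 CPM at 1260 and 1335 min. Its difference was 5.22 ± 1.26 (adjusted p = 0.0334, but 0.0812 without 1305 min), against 4.77 ± 1.38 over 14 embryos (adjusted p = 0.177 by edgeR, 0.00438 by DESeq2). The near-copies deltaTry and gammaTry rose by 5.79 ± 1.07 and 5.26 ± 1.12 (adjusted p = 0.0103 and 0.0192, and 0.0542 for gammaTry without 1290 min), with reads that may be shared between them. The sixth, Npc2f, of a family of sterol-binding proteins, had medians of 4.35 and 17.6 CPM (2.28 ± 0.50, adjusted p = 0.0218, but 0.0696 without 1290 min). Of these 6 genes only alphaTry was tested over 14 embryos. Jon25Biii, LysE, deltaTry, gammaTry and Npc2f passed the filter on low counts only over 12 embryos. Their p-values therefore describe those embryos and give no further support. Among abundant members that did not pass, Jon65Aiv had 0 to 344 CPM in the earlier and 94.9 to 1234 CPM in the 5 later embryos (adjusted p = 0.221).

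Genes of other secreted proteins were among the 12 largest rises. Ag5r (FBgn0015010), of a family of secreted proteins first known from wasp venom, had 2.96 to 34.2 CPM in the earlier embryos and 62.0 to 1460 CPM in the 5 later ones, with 11.5 CPM as the lowest later value over 14. Its difference was 6.11 ± 0.84 over 12 embryos (adjusted p = 0.00215) and 5.67 ± 1.11 over 14 (adjusted p = 0.113 by edgeR, 4.53e-07 by DESeq2). Without a filter on low counts, where 18 of 12648 genes (0.142%) were called higher and 0 lower over 14 embryos, Ag5r was among the 18 (adjusted p = 0.0444). Its relative Ag5r2 differed by 4.93 ± 0.89 (adjusted p = 0.0095), Jhbp7, of a family of juvenile hormone-binding proteins, by 6.29 ± 1.39 (adjusted p = 0.0228, but 0.0527 without 1320 min), and the mucin gene Muc18B by 5.11 ± 1.34 (adjusted p = 0.048, but 0.0957 without 945 min).

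In the nervous system few genes passed the test. Of 38 synaptic and neuronal genes 2 rose and none fell over 12 embryos (median 0.12), where 2.05% of all genes rose and 2.31% fell. Over 14 embryos none of 38 passed (median 0.37). ChAT, which makes acetylcholine, had 17.1 to 45.1 CPM in the earlier and 44.9 to 93.0 CPM in the later embryos, so that only the closest values overlapped. It differed by 1.39 ± 0.30 over 14 embryos (adjusted p = 0.113 by edgeR, 0.00238 by DESeq2) and by 1.32 ± 0.33 over 12 (adjusted p = 0.0407, but 0.0831 without 990 min). jeb, the ligand of the receptor Alk, rose by 1.45 ± 0.32 over 12 embryos (adjusted p = 0.0215, but 0.0552 without 1305 min), from a median of 85.2 CPM to 194 CPM. elav, Syt1 and brp, a neuronal RNA-binding protein and proteins of synaptic vesicles and release sites, had earlier medians of 191, 152 and 79.0 CPM and later medians of 123, 149.8 and 87.5 CPM, and none of the 3 passed the test.

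IA-2 (FBgn0031294), a membrane protein of the vesicles that carry peptides and hormones, stood higher in every later embryo, at 1105 to 1431 CPM against 270.2 to 939 CPM. It is a gene named after its values were seen, because its groups did not overlap. The log2 difference was 1.56 ± 0.30 over 14 embryos (adjusted p = 0.113 by edgeR, 0.0293 by voom and 0.000539 by DESeq2) and 1.57 ± 0.34 over 12 (adjusted p = 0.0215, but 0.0521 without 1305 min). The embryos labelled 1260 and 1335 min, at 1431 and 1105 CPM, were on the side of their own group here.

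The list of neuropeptides and of the genes that process them or act in moulting had 37 members, 35 with counts and 13 tested over 14 embryos. Of these 13, 12 had a positive difference, with a median of 1.07, and none passed the test. Over 12 embryos 2 of 15 rose (median 1.25), where 2.05% of all genes did. Of the 13 tested in both comparisons 1 rose. Nplp4, a precursor of neuropeptide-like peptides, had 1 count in all the earlier embryos together and 9.21 to 364 CPM in the 5 later ones, but none at 1260 or 1335 min (adjusted p = 0.000398, called in 12 of 12 fits leaving out 1 more embryo). Nplp4 passed the filter on low counts only over 12 embryos, through the later embryos where it was high. Its p-value therefore describes those embryos and gives no further support. Pal2, a lyase of the last step of peptide amidation, rose from 11.2 to 18.7 CPM to 19.1 to 43.9 CPM (1.25 ± 0.29, adjusted p = 0.0268, but 0.0835 without 1290 min). 7B2, a chaperone of the peptide-cutting enzyme amon, did not pass the test with edgeR, at medians of 67.6 and 112 CPM (1.01 ± 0.30 over 14 embryos, adjusted p = 0.183 by edgeR, 0.0453 by DESeq2).

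**Figure D5:**
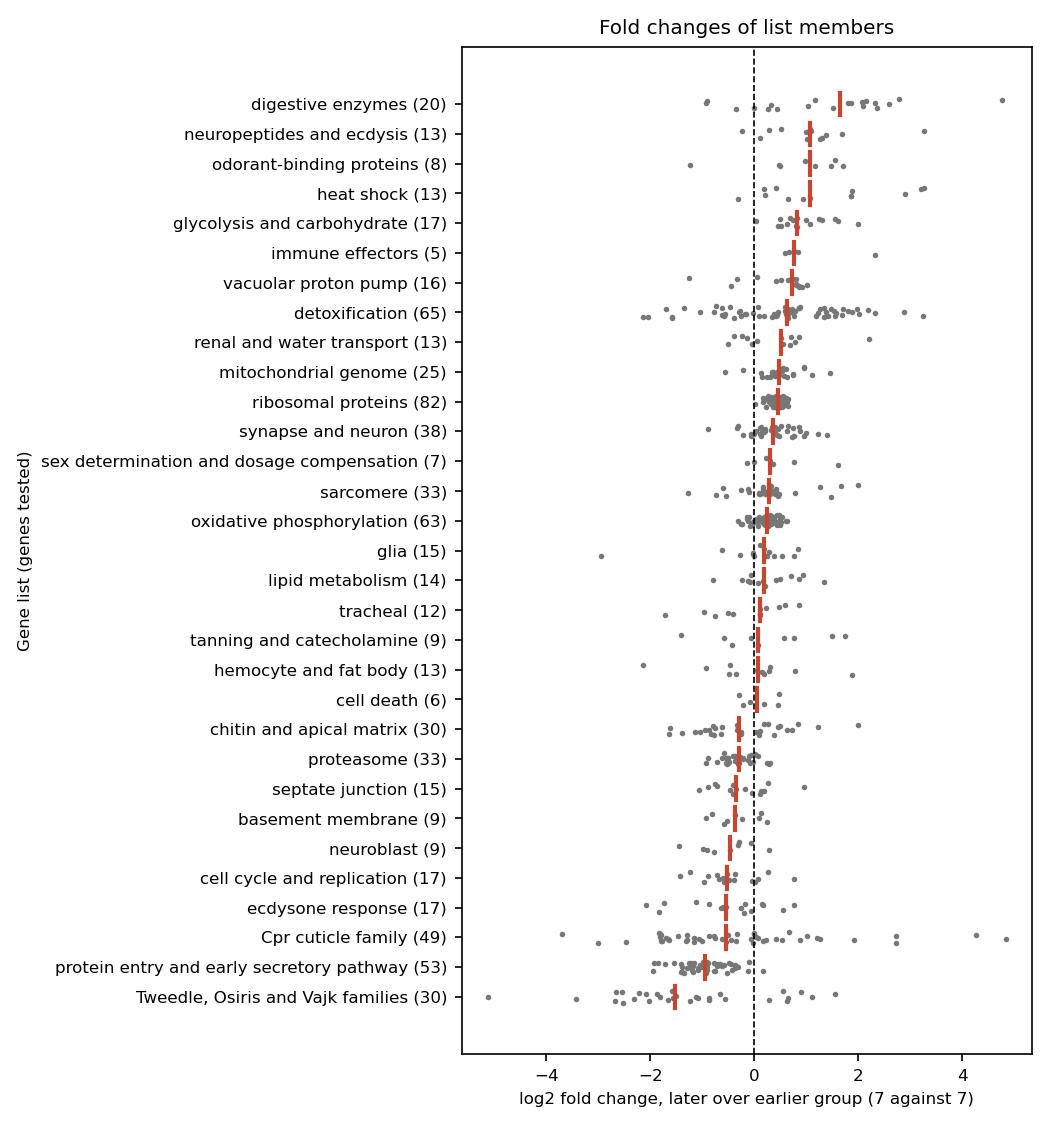
Log2 fold change, later over earlier group over all 14 embryos, of each tested gene (grey points) in the lists with at least 5 genes tested. The list's median is a red bar, the number of genes tested is in brackets and the median of all genes tested is a dashed line. Medians run from 1.65 for digestive enzymes to -1.53 for Tweedle, Osiris and Vajk genes, and no single gene passed the test in this comparison.

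Genes of sugar metabolism had positive differences throughout. All 17 tested had a positive difference over 14 embryos, with a median of 0.82 against -0.02 for all genes, and 9 had an unadjusted p under 0.05, where 14.1% of all genes did. When libraries were scaled by spike-ins, which lowered the median of all genes to -0.43, 16 of the 17 remained positive (median 0.43). Over 12 embryos 3 of 17 rose (median 1.05), where 2.05% of all genes did. Eno, enolase, had 168 to 399.6 CPM in the earlier and 357 to 1020.4 CPM in the later embryos (1.54 ± 0.36 over 14, adjusted p = 0.122; 1.71 ± 0.39 over 12, adjusted p = 0.0263, but 0.0668 without 1290 min). Pepck1, which makes the starting compound for sugar synthesis, had medians of 110.3 and 231 CPM (1.61 ± 0.39 over 14, adjusted p = 0.13; 1.79 ± 0.40 over 12, adjusted p = 0.0255, but 0.0781 without 1320 min). Pgi, the isomerase at the second step of glycolysis, had 108 to 241 CPM in the earlier and 274 to 436 CPM in the 5 later embryos, with 54.0 CPM at 1260 min (1.22 ± 0.30 over 12, adjusted p = 0.0368, but 0.0881 without 1290 min). Ald1 and Gapdh2, the most abundant glycolytic transcripts that did not pass, had medians of 2106 and 665 CPM in the earlier and 2733 and 817 CPM in the later group.

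Genes of respiration and of translation did not pass the test with edgeR over 14 or 12 embryos. Of 63 nuclear genes of oxidative phosphorylation, 50 were positive over 14 embryos (median 0.25, against -0.02 for all genes) and 62 over 12 (median 0.43, against -0.05 for all genes). Spike-in scaling lowered the median of all genes over 14 embryos to -0.43, and that of oxidative phosphorylation genes to -0.18. Of 82 ribosomal protein genes, which include paired copies that may share reads, all were positive over 14 embryos (median 0.46) and 81 over 12 (median 0.47). Over 14 embryos 50 had an unadjusted p under 0.05, where 14.1% of all genes did. DESeq2 called 2 of the 82 higher, a share near the 2.17% of all genes. With spike-in scaling their median was -0.01. RpL21 had medians of 19601 and 20933 CPM.

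The machinery that brings proteins into the secretory pathway had negative differences almost throughout. This list was drawn up after the values were seen, so its count describes these embryos and supports nothing. Of 53 genes tested over 14 embryos 52 had a negative difference (median -0.95), 31 had an unadjusted p under 0.05, where 14.1% of all genes did, and 7 were lower with no overlap between the groups, where 0.418% of all genes were. None passed the test with edgeR and 8 did with DESeq2, which called 0.941% of all genes lower. Over 12 embryos 4 of 53 fell (median -1.0), where 2.31% of all genes did. The embryo at 930 min summed to 27543 CPM over the list, the other earlier embryos to 3759 to 7413 CPM and the later ones to 2023 to 3937 CPM. Without the embryo at 930 min the median was -0.58.

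SsRbeta (FBgn0011016), a subunit of the complex that assists translocation into the endoplasmic reticulum, had 238 to 1022 CPM in the earlier and 116 to 197 CPM in the later embryos. It differed by -1.36 ± 0.30 over 14 (adjusted p = 0.113 by edgeR, 0.00249 by DESeq2) and by -1.45 ± 0.34 over 12 (adjusted p = 0.0297, but 0.085 without 1275 min). Spase25, a subunit of the signal peptidase, fell by 2.03 ± 0.48 over 12 embryos on the log2 scale (adjusted p = 0.0289, but 0.079 without 1275 min). Its level was 37.1 to 328 CPM in the earlier and 7.54 to 32.2 CPM in the later group of 7. OstDelta, which acts in N-glycosylation, and Sec61beta, of the translocation channel, had adjusted p of 0.034 and 0.0291 over 12 embryos. Without the embryo at 1320 min that of OstDelta was 0.0921, and without that at 1275 min that of Sec61beta was 0.0876. Tapdelta, Spp, CaBP1, alphaCOP and ArfGAP1 also did not overlap between the groups of 7, with adjusted p from 0.118 to 0.244 over 14 embryos and from 0.0511 to 0.123 over 12. CaBP1, a protein disulfide isomerase, had 1815 CPM at 930 min and 149.7 to 185 CPM in the other earlier embryos, against 38.1 to 119 CPM in the later ones.

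Over all 14 embryos 4 genes stood higher in every later embryo than in any earlier one (0.0597% of genes tested) and 28 stood lower (0.418%). They are named because of their values. Besides IA-2, the higher ones were Cys, csw and Rel. Cys (FBgn0004629), an inhibitor of cysteine proteases of the cystatin family, had 601 to 1326 CPM in the earlier and 1557 to 2842 CPM in the later embryos, and had the smallest unadjusted p of those 4. Its difference was 1.52 ± 0.27 over 14 (adjusted p = 0.113 by edgeR, 0.0412 by voom, 0.000141 by DESeq2) and 1.53 ± 0.31 over 12 (adjusted p = 0.0164, called in 12 of 12 fits leaving out 1 more embryo). The embryos between the groups, which shared the later embryos' pool, already had medians of 2113 CPM (1005 to 1095 min) and 2498 CPM (1110 to 1230 min). Within that pool Cys differed by 0.12 between 1005 to 1095 min and 1245 to 1335 min (adjusted p = 0.798). csw, a tyrosine phosphatase of receptor signalling, had 46.0 to 135 CPM against 138 to 488 CPM (1.93 ± 0.40 over 14, adjusted p = 0.113). Rel, the NF-kappaB factor of the Imd immune pathway, had 24.9 to 58.7 CPM against 74.6 to 215 CPM (1.81 ± 0.36 over 14, adjusted p = 0.113). Over 12 embryos both csw and Rel had an adjusted p of 0.0209, but 0.0524 and 0.0521 without 1305 min.

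Among the 28 lower genes were the 7 of the secretory list, Tsf2, RyR, fng, fabp and Rpn8. Tsf2, an iron-binding protein of septate junctions, had 34.2 to 82.2 CPM against 16.3 to 31.0 CPM (-1.07 ± 0.23 over 14, adjusted p = 0.113; -1.18 ± 0.27 over 12, adjusted p = 0.0258, but 0.0696 without 1320 min). It was the 1 of 15 septate junction genes that fell over 12 embryos, where 2.31% of all genes did. RyR, the calcium release channel of muscle, fng, a glycosyltransferase that modifies Notch, fabp, a fatty acid-binding protein, and Rpn8, a proteasome subunit, had adjusted p from 0.13 to 0.208 over 14 embryos and from 0.0667 to 0.117 over 12. Of the remaining genes with a small p, Faa, the last enzyme of tyrosine breakdown, had medians of 11.3 and 115 CPM (3.37 ± 0.75 over 14, adjusted p = 0.113; 3.80 ± 0.58 over 12, adjusted p = 0.00494). Ak3, an adenylate kinase, had medians of 17.1 and 53.4 CPM (1.60 ± 0.33 over 14, adjusted p = 0.113; 1.67 ± 0.37 over 12, adjusted p = 0.0242, but 0.0615 without 1290 min).

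Of 73 genes of xenobiotic metabolism tested over 12 embryos 6 rose, where 2.05% of all genes did, and 2 fell, a share near the 2.31% of all genes (median 0.60). Over 14 embryos none of 65 passed the test (median 0.63). Of these 65, 5 rose and 2 fell over 12 embryos. Cyp6a17 and Cyp12a4, both cytochrome P450 genes, rose by 3.65 ± 0.69 and 4.50 ± 1.02 (adjusted p = 0.0125 and 0.0263), while Cyp304a1 and Ugt301D1 differed by -3.74 ± 0.84 and -3.70 ± 0.81 (adjusted p = 0.0248 and 0.0215). Cyp12a4 passed the filter on low counts only over 12 embryos, so its p-value describes those embryos and gives no further support. Cyp6a17 was called in 12 of 12 fits leaving out 1 more embryo. Cyp12a4 was called in 6 of 12 (adjusted p = 0.0634 without 1320 min), Cyp304a1 in 8 of 12 (0.0751 without 1290 min) and Ugt301D1 in 3 of the 7 in which it was tested (0.062 without 1320 min). All 4 had medians under 50 CPM in both groups. The abundant glutathione transferase gene GstD1 did not pass, at medians of 980.2 and 1150.3 CPM. Obp99c, an odorant-binding protein gene, rose over 12 embryos from a median of 107 CPM to 330.3 CPM (1.81 ± 0.35, adjusted p = 0.0132, called in 12 of 12 fits leaving out 1 more embryo). It was the 1 of 10 tested genes of its family that rose, where 2.05% of all genes did. Obp44a did not pass, with medians of 450.3 and 1140.3 CPM.

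Muscle transcripts were abundant in both groups. Mhc, the myosin heavy chain, had 1180 to 3551 CPM in the earlier and 1119 to 2860 CPM in the later embryos, and neither group lay apart from the other. Mlc2, a myosin light chain, had medians of 4191 CPM in the earlier and 5044 CPM in the later group, and up, troponin T, of 2967 and 2973 CPM. None of these passed the test. The muscle list had a median of 0.28 over 14 embryos and 0.39 over 12. Of its 34 genes tested over 12 embryos 1 fell, a share near the 2.31% of all genes. This was Neurochondrin, whose mammalian namesake acts in neurons (-1.98 ± 0.41, adjusted p = 0.0164, but 0.0534 without 1290 min). Single falls over 12 embryos were also seen for ImpL1 in the ecdysone list (adjusted p = 0.044, but 0.102 without 1320 min) and for LanB1, a laminin, among basement membrane genes (adjusted p = 0.0476, but 0.114 without 1275 min). They were seen as well for hid, a trigger of cell death (adjusted p = 0.0174, but 0.059 without 1290 min), and gcl, a germ cell determinant (adjusted p = 0.0401, but 0.0978 without 1320 min). The lists of these 4 genes had 18, 9, 6 and 3 genes tested, where 2.31% of all genes fell. hid had 15.8 to 191 CPM in the earlier embryos, 6.13 to 16.8 CPM in the 5 later ones and 362 CPM at 1260 min.

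Heat shock genes gave no call with edgeR, but 4 of 13 were higher with DESeq2 over 14 embryos (Hsp23, Hsp26, Hsp27 and Hsp68), where 2.17% of all genes were. The list's median was 1.06 over 14 embryos and 0.61 over 12. The embryo at 1260 min had 7648 CPM summed over the list, the other later embryos 1258 to 2995 CPM and the earlier ones 1387 to 2172 CPM. Hsp26 had 435 CPM at 1260 min and 2.67 to 68.5 CPM in the other 13 embryos. Its difference of 2.89 ± 0.82 over 14 embryos was 1.45 ± 0.61 over 12 (adjusted p = 0.167 and 0.185).

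Markers of other sources were checked in the same embryos. Of the egg's own transcripts bcd, osk, pgc, gnu and BigH1 had a median of 0 CPM in both groups and at most 5.09 CPM in any embryo, and the most abundant was smg at 5.45 to 29.9 CPM. Of the yolk and eggshell genes Yp1, Yp2, Yp3, Cp36 and Vm26Ab reached at most 2.96 CPM, and Cp38 stood at 0.403 to 8.72 CPM. Glia (repo, nrv2), fat body (apolpp, Lsp2), blood cells (Hml, Pxn) and the gut marker mag gave no call in either comparison where they were tested. lncRNA:roX1, a noncoding RNA of the complex that raises X-linked transcription in males, was at 839 CPM at 915 min, 818 CPM at 1245 min and 681 CPM at 1290 min, and at 9.94 to 60.2 CPM in the other 11 embryos. Its part in the results was not tested.

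Since pool and group coincide, the later embryos were also compared with the 7 embryos at 1005 to 1095 min, which share their pool. There 50 of 5884 genes (0.85%) were higher and 244 (4.15%) lower in the later group. Without the embryo at 1065 min, which had 391819 gene counts, both numbers were 0. A fit of labelled time that adjusted for pool, made over the 30 embryos from 900 min on, called 78 of 7894 genes (0.988%) rising and 270 (3.42%) falling. Both comparisons include embryos unlike either group: of the 16 embryos between, 9 had less Mhc than any of the 14 (9.70 CPM at the lowest) and 9 had more stg, the phosphatase that starts mitosis, than any of the 14 (265 CPM at the highest). Cell cycle genes differed there (13 of 21 lower within the pool, 16 of 30 falling with pool as covariate), while none of 17 passed the test between the groups of 7. By name, Ag5r, Cpr47Eb, Jhbp7, alphaTry and IA-2 were higher within the later pool too (adjusted p = 0.0343, 0.0284, 0.0311, 0.0429 and 0.0311), and SsRbeta, OstDelta and Tsf2 were lower (0.0391, 0.0275 and 0.031). The genes csw, Rel, Eno, Pepck1, ChAT, jeb, Faa and Ak3 did not pass there. The fall of the Tweedle, Osiris and Vajk genes was not seen in either comparison. Within the pool 0 of 18 tested were called lower and 13 were positive (median 0.62, against 0.19 for all genes). With pool as covariate 0 of 33 were called lower and 23 were positive (median 0.94, against 0.35 for all genes).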

How the data were processed

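The authors deposited 1 table of raw read counts per gene and embryo. CASAVA 1.8, Bowtie2 2.1.0, HTSeq 0.5.4p3 and build BDGP5 are named in the submitters' processing notes. Neither the strand setting nor the use of molecular identifiers is stated there or in the labels, so counts may include amplification copies. Fly gene counts alone (15682 identifiers, 15002 of them with a symbol in the name table) entered library sizes. Over the 14 embryos 38.3% of all counts lay outside fly genes and 7.96% of gene counts had no symbol. The 92 spike-in transcripts served as an alternative scale. The deposited sample sheet gave lanes and library pools.

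Groups were tested with edgeR 4.0.16 (R 4.3.3) by TMM normalization, filterByExpr, quasi-likelihood F-test and Benjamini-Hochberg adjustment over all genes tested, and a gene was called at an adjusted p under 0.05. Fold changes are log2, later over earlier group, with standard errors from the F statistic, and negative values are lower in the later group. Alternatives were DESeq2 1.42.0 (its test and its size factors), limma voom 3.58.1, spike-in scaling, no filter, each embryo left out, the later pool alone, and labelled time with pool as covariate, per 345 min. Totals per library were compared by an exact permutation test. The procedure was tested on simulated data.

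The members and gene lists were chosen with earlier results of these data known. Genes named are, by rule, the 12 largest rises and 12 largest falls of called genes that carry a symbol and average 50 CPM or more in the higher group, 4 called and 2 abundant uncalled genes of each list, and the markers. With no gene called over 14 embryos, the rule for called genes was applied to the 12-embryo comparison. Genes named for groups that do not overlap, for a small p or for a call without a filter were chosen after their values were seen. The labels do not say which embryos shared a mother or a plate, so the p-values rest on embryo-to-embryo spread, which also spans 90 min of development within a group.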

Additional observations from a re-analysis of the deposited data

Results flagged for a closer look

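In 27 of 190 groups of 7 embryos, formed by the genes named and the library totals, the highest or lowest embryo lay so far from the next that the gap, as a share of the range of the group (log2(CPM + 1) for genes), passed Dixon's 95% limit for 7 values. Chance alone gives about 1 group in 20, and genes that move together do not count separately. Several of these genes were named for calls made with some later embryos set aside. Outlying values in those embryos are therefore partly fixed by how the genes were chosen. The number flagged cannot be judged against the chance rate for that reason.

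The embryo labelled 1260 min accounted for most of them in the later group. It was set aside in the comparison that named several of the flagged genes, which partly fixes this result. It had the highest level of the cuticle genes TwdlT (gap 0.858), Osi6 (0.819), Osi20 (0.812), Osi15 (0.721), TwdlF (0.717) and Gasp (0.68), and of rib (0.648, at 399 CPM), Hsp110 (0.583, at 1095 CPM) and ImpL1 (0.579, at 528 CPM). It had the lowest level of Lcp65Ag3 (0.763), Pgi (0.748), Lcp65Ag2 (0.734) and TwdlN (0.687). The embryo at 1335 min had the highest yellow-d2 (0.574, at 31.3 CPM). The embryo at 1245 min had the lowest alphaCOP (0.755), and that at 1305 min the lowest Pxn (0.71) and Spp (0.591).

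In the earlier group the embryo at 930 min had the highest level of CaBP1 (0.915), Spp (0.713), Hsp110 (0.587, at 406 CPM) and Spase25 (0.58). It had the lowest level of Pxn (0.772), a gene of blood cells, of Obp44a (0.718, at 25.7 CPM) and of Gapdh2 (0.642, at 242 CPM). The embryo at 915 min had the lowest mwh (0.665, at 5.81 CPM) and the highest lncRNA:roX1 (0.603, at 839 CPM). The embryo at 975 min had the highest share of mitochondrial transcripts (0.609, at 10.7%).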

How the results depend on the processing

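Over 14 embryos, edgeR called 0 genes higher and 0 lower, also with DESeq2's size factors, with spike-in scaling and within the later pool without the embryo at 1065 min. Other settings made calls. They were 147 higher and 166 lower without the embryos at 1260 and 1335 min (256 and 208 when the filter on low counts was dropped as well), 145 and 63 with DESeq2, 3 and 0 with limma voom, and 18 and 0 without the filter alone. Within the later pool there were 50 higher and 244 lower, or 183 and 625 without the embryos at 1260 and 1335 min. With pool as a covariate there were 78 and 270, or 142 and 362 without those embryos, or 52 and 200 without the shallow embryos at 1065, 1155 and 1170 min. Leaving out 1 of the 14 embryos gave 0 to 32 higher and 0 to 5 lower, most without that at 915 min. Leaving out 1 of the 12 gave 73 to 402 higher and 51 to 301 lower. DESeq2 and the 12-embryo comparison shared 84 genes called higher (57.1% and 57.9% of the 12-embryo and DESeq2 calls) and 22 called lower (13.3% and 34.9%). The cause of these differences was not tested. The fits leaving out 1 of the 12 embryos, and all those without 1260 and 1335 min other than the 12-embryo comparison itself, were chosen after seeing the data, as were those without shallow embryos.

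Among 150 named genes with a value over 14 embryos, 3 were called with the opposite sign under an alternative: rib (-2.56) and Hsp110 (-1.86) within the later pool without 1260 and 1335 min, and E2f1 (-1.80) with pool as covariate without them. Signs of uncalled genes changed for 25 of 150 with spike-in scaling and 8 of 150 without 1260 and 1335 min. With pool as covariate they changed for 35 of 150. Within the later pool they changed for 26 of the 125 with a value there, and for 31 of 135 without the embryo at 1065 min. No paired analysis was possible because the labels give no replicate numbers that tie embryos across groups. Depth limits the low genes: 1 count was worth up to 0.838 CPM in the shallowest library.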

Other observations

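Gene groups not described above gave no call with edgeR over 14 or 12 embryos. The vacuolar proton pump, which acidifies the gut and drives ion transport in the renal tubules, had 13 of 16 tested subunits with a positive difference over 14 embryos (median 0.73) and 13 of 17 over 12 (median 0.98), of which 10 had an unadjusted p under 0.05, where 21.0% of all genes did. Its most abundant subunit, Vha16-1, had medians of 1133 and 1540.5 CPM in the earlier and later group (0.65 ± 0.35 over 14 embryos, adjusted p = 0.424). All 5 tested immune effector genes had a positive difference (median 0.76 over 14 embryos). The most abundant, IM33, an immune-induced peptide gene, had 19.8 to 532 CPM in the earlier embryos and 542 to 1261 CPM in the later ones other than those at 1260 and 1335 min (2.73 ± 0.80 over 12 embryos, adjusted p = 0.0704, and 2.32 ± 0.87 over 14, adjusted p = 0.255). Of the 3 tested genes of the larval eye all were positive, with rdgB, a lipid transfer protein of photoreceptors, at 64.6 and 97.5 CPM (1.08 ± 0.36 over 14 embryos, adjusted p = 0.217). Over 14 embryos the median was 0.10 for tracheal genes (12 tested), 0.52 for renal and water transport genes (13), 0.19 for glial genes (15) and -0.30 for proteasome genes (33). Among the lists not described above DESeq2 called 1 glial, 1 proteasome and 1 lipid metabolism gene lower over 14 embryos. These were 1 of 15, 1 of 33 and 1 of 14 tested, where 0.941% of all genes were lower. The tracheal median was -0.24 over 12 embryos and -0.42 with spike-in scaling, and the glial median -0.40 with spike-in scaling.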
